A study of Mus musculus with 4 samples.

Results

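The myogenic regulatory factors Myod1, Myf5, Myog and Myf6 and the paired-box factors Pax3 and Pax7 were followed through lists of open chromatin from 4 mouse muscles. Peaks were chosen by gene name: a peak counted when the annotation deposited with it gave one of these 6 genes as nearest. This rule took 39 of the 120839 peaks in the 4 lists, and they joined into 20 of 53883 merged regions when peaks that overlapped by at least 1 bp were combined. The assay was ATAC-seq, in which the Tn5 transposase cuts accessible DNA and tags it for sequencing. Fast glycolytic fibres prevail in the extensor digitorum longus (EDL) and the quadriceps (Quad), and oxidative fibres in the soleus (Sol). The diaphragm (Dia) is the main muscle of breathing. All came from sedentary wild-type mice, young males labelled C57BL/6 and bought as C57BL/6J. The labels call each library pooled, and 1 library per muscle was analysed here, so differences between muscles carry no replicate check and no p-value.

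The myogenic regulatory factors are basic helix-loop-helix proteins that pair with E proteins such as Tcf3 and bind the E-box, CANNTG. Pax3 and Pax7 act before them in muscle progenitors, Myf5 and Myod1 commit cells to the lineage, and Myog and Myf6 act in differentiation and in mature fibres. In adult muscle Pax7 marks the quiescent satellite cells, whose nuclei are a minority among those of the fibres. Myod1 messenger RNA is known to be higher in fast muscle and Myog messenger RNA higher in slow muscle, and Myf6 stays on in adult fibres. Myf5 and Myf6 lie beside each other, and their long upstream control region is known to reach into the neighbouring gene Ptprq. In bulk tissue, fewer nuclei of a type and less open DNA per nucleus cannot be told apart.

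The sequences on which the results below turned were taken from RefSeq, build GRCm38.p6, and are written 5′ to 3′. No list held a peak at the Myog or the Pax7 promoter, although both genes had peaks in every list. The first sequence is the Myog promoter. It is the stretch of 250 bases before the RefSeq start, on the plus strand at chr1:134289754-134290003, and its capitals mark 2 E-boxes (CACATG and CAGTTG) and 1 MEF3 site (TCAGGTT) at -84 to -78 from that start. The next 4 are the stretches common to all peaks of a region, each on the plus strand. The Myog distal region at chr1:134302865-134303024 held the highest-ranked Myog peaks in Quad, Sol and Dia, and its capitals mark 1 E-box. The Myf6 distal region at chr10:107563057-107563223 showed the widest spread among the muscles, and the Myf6 proximal region at chr10:107499733-107499869 had no Dia peak. Neither held an E-box in this common stretch. The Pax7 region at chr4:139771274-139771411 held the highest-ranked Pax7 peaks, and its capitals mark 1 E-box, CAGGTG, which is the complement of the CACCTG form.
Myog promoter: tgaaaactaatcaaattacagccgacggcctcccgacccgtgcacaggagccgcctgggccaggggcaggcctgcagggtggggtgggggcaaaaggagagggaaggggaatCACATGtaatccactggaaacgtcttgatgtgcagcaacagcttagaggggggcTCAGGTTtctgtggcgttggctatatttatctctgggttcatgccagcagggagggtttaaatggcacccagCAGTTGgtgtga
Myog distal region: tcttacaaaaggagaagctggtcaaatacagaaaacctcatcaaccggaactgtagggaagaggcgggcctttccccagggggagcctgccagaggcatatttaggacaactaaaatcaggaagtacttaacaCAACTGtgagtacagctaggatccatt
Myf6 distal region: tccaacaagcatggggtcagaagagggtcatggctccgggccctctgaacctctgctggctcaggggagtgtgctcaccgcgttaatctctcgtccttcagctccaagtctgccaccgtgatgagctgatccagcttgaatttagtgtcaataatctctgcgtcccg
Myf6 proximal region: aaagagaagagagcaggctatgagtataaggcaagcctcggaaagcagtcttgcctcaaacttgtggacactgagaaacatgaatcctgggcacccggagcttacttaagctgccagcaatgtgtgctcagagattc
Pax7 region: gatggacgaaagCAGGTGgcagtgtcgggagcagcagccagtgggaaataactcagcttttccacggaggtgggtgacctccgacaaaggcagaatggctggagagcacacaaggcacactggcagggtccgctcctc

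The 4 lists differed in length and in how peaks were drawn. The Quad list was the longest with 40337 peaks, before EDL with 30136, Sol with 28784 and Dia with 21582, with fixed widths of 188 to 232 bp and lowest scores of 3.06 to 3.63. The score is a tag count that the authors' software scaled, and the tags behind each peak were inferred from its steps. The lowest-scored peak of a list held between 25 and 36 tags. A peak not listed means only that none was called there in that library. Because calling was separate, a peak is mainly described by its score percentile, its rank from the lowest score upward as a percent of the list, with tied peaks given their mean rank. Of 8 muscle fibre markers, promoter peaks were found for 7 in EDL and in Quad, 6 in Sol and 4 in Dia. All 3 endothelial markers (Pecam1, Cdh5, Kdr) had one in EDL, Quad and Sol, and Kdr alone in Dia. None of 3 leukocyte, 3 Schwann cell or 2 adipocyte markers did in any list. Of 3 fibroblast markers Dcn had one in Sol, and of 3 mural cell markers Myh11 had one in EDL and Quad and Pdgfrb in Dia. Of 5 satellite cell markers, Megf10 had a promoter peak in EDL, Quad and Sol and Chodl in Sol, and Dia had none.

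The factors differed widely in how much open chromatin was assigned to them. Myf6 held the most peaks, with 4 in both EDL and Quad, 6 in Sol and 2 in Dia, followed by Pax7 with 2, 4, 3 and 1 and Myog with 2, 2, 2 and 1 in the order EDL, Quad, Sol, Dia. Myod1 held 1 peak each in EDL, Quad and Sol and none in Dia. Myf5 held 2 peaks and Pax3 held 1, all in Quad. Myf6, Myog and Pax7 were therefore the 3 members with a peak in every list. Among the 20000 highest-scored peaks of each list, Pax7 kept 1 peak, in Sol, and Myf5 and Pax3 had none, while Myf6 and Myog still had a peak in every list.

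By muscle, EDL held 9 of these peaks, Quad 14, Sol 12 and Dia 4. Members with at least 1 peak numbered 4 of 6 in EDL (54.7% of 21900 protein-coding genes had one), 6 in Quad (60.2%), 4 in Sol (54.5%) and 3 in Dia (51.2%). Members with a promoter peak numbered 2 of 6 in EDL, Quad and Sol and 0 in Dia, where the share of protein-coding genes was 37.7%, 41.3%, 37.6% and 37.0% in that order. With 6 genes, the counts of members with a peak in EDL, Sol and Dia lie near what the whole gene set gives. So do the promoter counts in EDL, Quad and Sol. The 6 members in Quad include Myf5 and Pax3, whose peaks there ranked no higher than percentile 20.8. Whether the Quad count or the 0 promoters in Dia departs from the whole gene set was not tested, and 6 genes are few.

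Most of the peaks lay away from the starts of the genes. Of the 39, 22 were in introns, 6 at promoters, 6 in intergenic DNA, 2 in exons, 2 in the 3′ untranslated region of Myog and 1 at a transcript end. The median distance from the assigned start was shortest in EDL, at 12664 bp, then 17527 bp in Sol, 40471 bp in Quad and 47145 bp in Dia. Over all peaks of the lists the order was different, with 3754 bp in Dia, 10368 bp in Sol, 10481 bp in EDL and 13561 bp in Quad. Promoters held 25.5% (Quad) to 41.3% (Dia) of all peaks, but none of the factors' peaks in Dia. Away from promoters the medians over all peaks were alike: 22778 bp in Dia, 24059 bp in EDL, 25180 bp in Sol and 25370 bp in Quad. The map of peaks around each start shows the contrast between Myod1, with its peak at the start, and Myf5, whose nearest assigned peak was 81991 bp away.

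**Figure D1:**
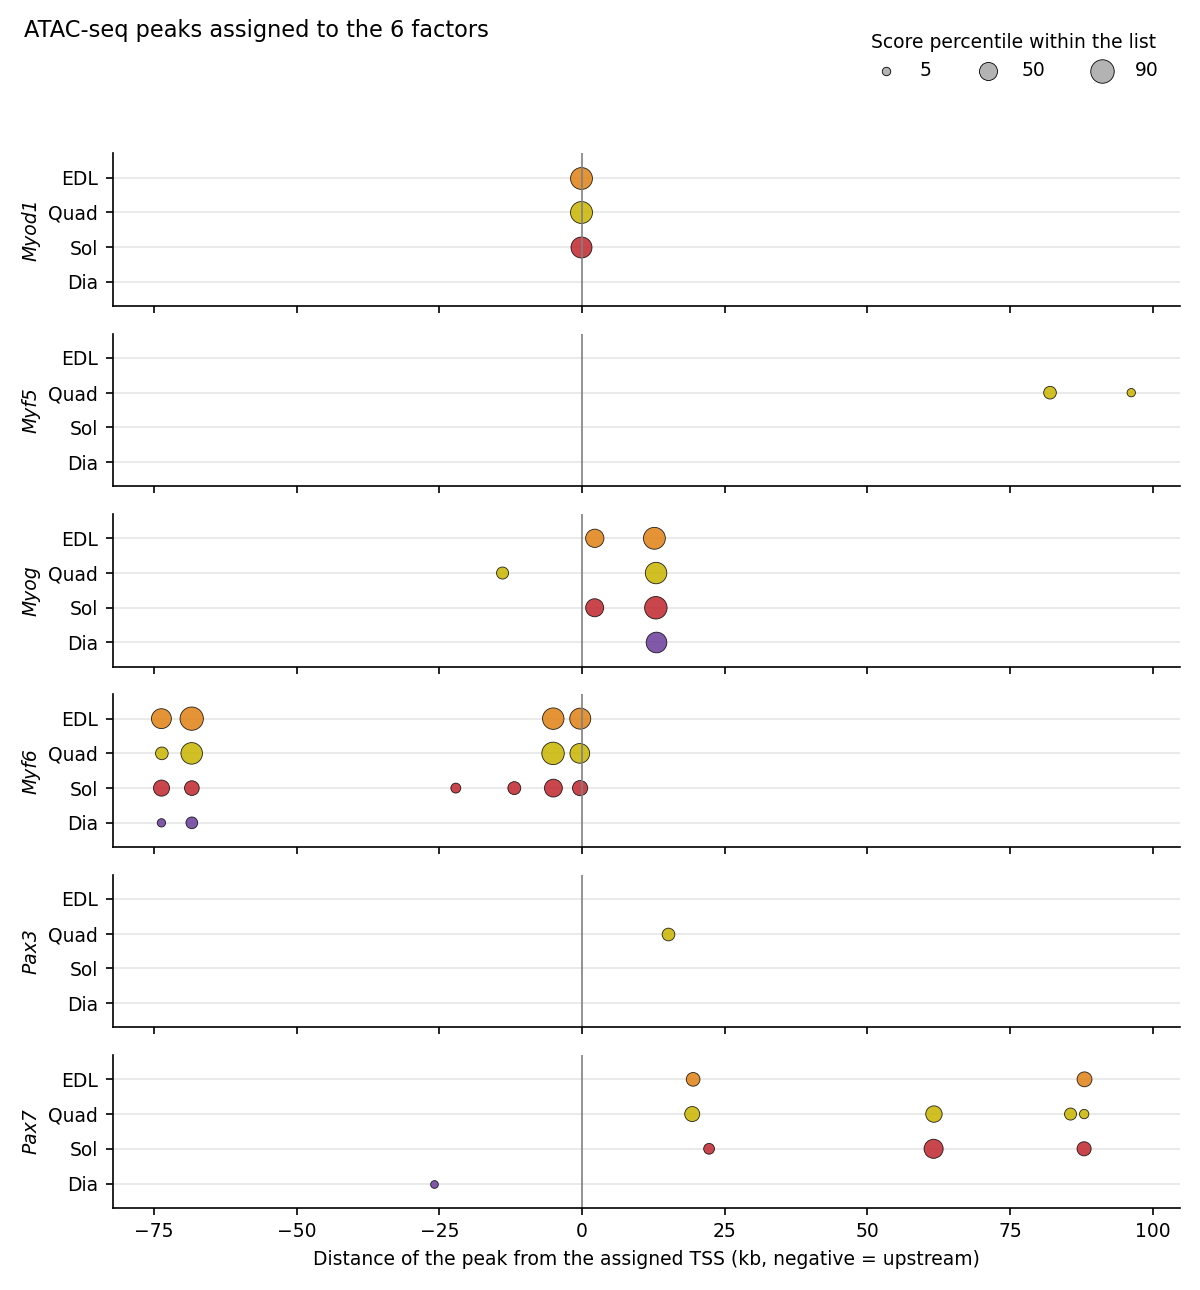
Peaks assigned to the 6 factors, by muscle. The x axis is the distance from the assigned transcription start in kb (negative is upstream), each circle is 1 peak, and a larger circle has a higher score percentile in its own list; Myod1 has a peak at its start in EDL, Quad and Sol, Myf6 peaks run from -73.7 kb to the promoter, and Myf5 and Pax3 have peaks in Quad alone.

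The ranks of these peaks also differed between muscles. In EDL the median percentile was 70.7 with a range of 25.6 to 88.6, and 7 of 9 peaks were above the middle of the list. In Quad the median was 26.6 (4.70 to 81.7), with 5 of 14 above the middle, and in Sol it was 35.8 (9.81 to 82.0), with 3 of 12. The 4 Dia peaks had a median of 10.7 (2.92 to 68.1), and 1 of them, at Myog, was above the middle. Promoter peaks score higher than others in every list, so the peaks away from promoters were also set apart. Their medians were 62.5 in EDL (n = 7), 20.8 in Quad (n = 12), 34.4 in Sol (n = 10) and 10.7 in Dia (n = 4), against 38.3, 40, 38.2 and 34.1 over all such peaks of the lists. The median rank of the factors' distal peaks was thus above that of all such peaks in EDL and below it in Quad, Sol and Dia, though close to it in Sol. In EDL the 2 Pax7 peaks, at 25.6 and 31.6, ranked below it, and the Myf6 and Myog peaks ranked above it.

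**Figure D2:**
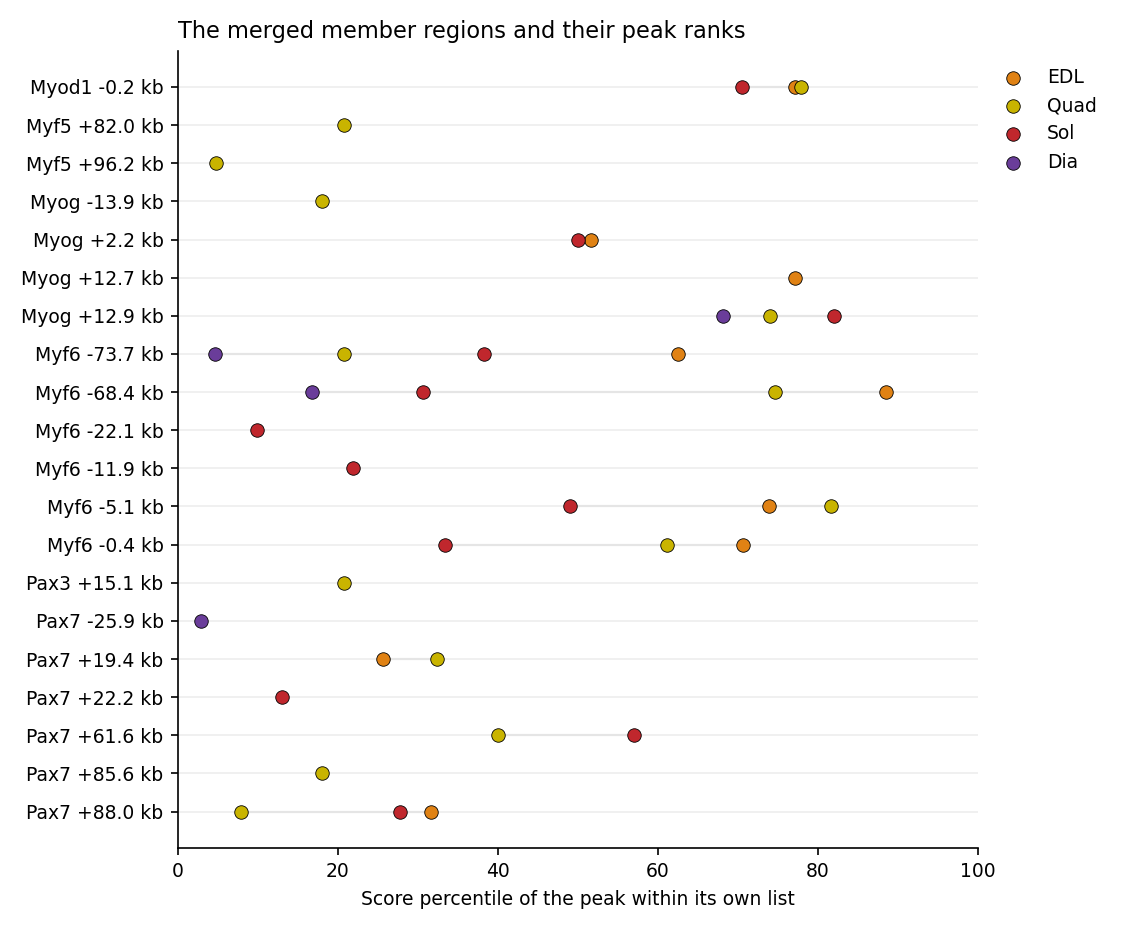
Score percentile of the peak of each muscle at the 20 merged regions. The x axis is the percentile within the muscle's own list, rows are regions named by gene and mean distance from its start, and colours are muscles; the Myf6 region at -68.4 kb runs from 16.7 in Dia to 88.6 in EDL, whereas the 3 Myod1 promoter peaks lie between 70.5 and 77.9.

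Pax3 and Pax7, the progenitor factors, had no promoter peak in any list. Pax3 spans chr1:78101267-78197134 on the minus strand in GENCODE vM21. Its single peak was in Quad, at chr1:78181934-78182122 in intron 4 of 7, 15108 bp inside the gene. It scored 4.61 (95% Poisson interval 3.23 to 6.38, 36 tags) at percentile 20.8. All such intervals cover counting error only. The EDL, Sol and Dia lists held no peak within 100 kb of the Pax3 start, so that Pax3 rested on 1 low-ranked peak.

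Pax7 spans chr4:139737062-139833528, also on the minus strand, and gathered 10 peaks in 6 regions. Of these regions 5 lay in its own introns and 1 upstream. The best-ranked region was in intron 7 of 8, about 61.6 kb into the gene, where Sol scored 7.93 (6.32 to 9.83, percentile 57.0) and Quad 5.76 (4.20 to 7.71, percentile 40). This is the Pax7 region printed above, and neither EDL nor Dia had a peak there. The score was higher in Sol than in Quad, but the ratio of Quad to Sol was 0.726 with an interval of 0.494 to 1.06. A region in intron 8 of 8, about 88.0 kb into the gene, was the only Pax7 region in 3 lists, at percentile 31.6 in EDL, 7.89 in Quad and 27.7 in Sol. The EDL and Sol scores there were alike, 5.48 and 5.35, with a ratio of 1.02 (0.696 to 1.51). Intron 4 of 8 held a region of EDL (percentile 25.6) and Quad (32.4), whose peaks shared 40 bp, and a separate Sol peak (13.0). The remaining 2 were single peaks, in intron 8 in Quad (18.0) and 25890 bp upstream in Dia (2.92). Thus 9 of the 10 Pax7 peaks ranked at or below percentile 40, and the Dia peak, with 42 tags, stood close to the lowest peak of that list, which had 36.

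Myf5, the factor first switched on in the embryonic lineage, lies at chr10:107482908-107486134 on the minus strand. No list held a promoter peak for it. Its 2 assigned peaks were both in Quad and both in intron 4 of 5 of Lin7a, which encodes a scaffold protein, at 81991 and 96228 bp beyond the Myf5 start. They scored 4.61 (3.23 to 6.38) and 3.97 (2.70 to 5.63), at percentiles 20.8 and 4.70. The second held 31 tags, near the limit of 25 tags in the Quad list. The nearest peaks of the other lists lay at least 12294 bp away. All 4 regions within 50 kb of the Myf5 start were assigned to Myf6, whose start is nearer, so the counts for Myf5 and Myf6 depend on the rule of the nearest gene.

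Myod1, the second determination factor, lies at chr7:46376474-46379099 on the plus strand. Its promoter peak was found in EDL 238 bp, in Quad 230 bp and in Sol 248 bp before the start, in the merged region chr7:46376123-46376340. Scores were 10.9 in EDL (8.96 to 13.1), 10.8 in Quad (8.58 to 13.3) and 9.75 in Sol (7.95 to 11.8). Their percentiles were 77.1, 77.9 and 70.5, and the intervals overlapped throughout. The ratio of EDL to Sol was 1.12 (0.846 to 1.47) and that of Quad to Sol 1.11 (0.817 to 1.49), so the fast muscles and Sol were not separated by the depth of these libraries. Set among the promoter peaks of each list alone, these peaks ranked at 51.4, 44.3 and 42.8, that is, in the middle.

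The Dia list had no peak at the Myod1 promoter, and its nearest one lay 4763 to 4790 bp away. Among 8264 promoter regions with a peak in EDL, Quad and Sol, 93.9% also held a Dia peak, and 504 did not. Both promoter regions of the factors, those of Myod1 and Myf6, were among the 504, so 0 of 2 held one. When the comparison was limited to promoter regions whose EDL score was no higher than that of Myod1, a limit chosen after the values were seen, 89.4% of 3803 held a Dia peak. The Dia list was also the one with the fewest muscle fibre and endothelial marker promoters, though not the fewest mural cell ones, and the part of this in the missing peaks was not tested.

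Peaks around Myod1 were more numerous than the assigned ones. Within 50 kb of its start, EDL held 10 peaks, Quad 13, Sol 5 and Dia 3, which formed 15 regions. The authors' annotation gave 7 of them to the non-coding gene Gm45923, 7 to Kcnc1, a potassium channel gene, and 1 to Myod1. Only 2 regions were found in all 4 lists. In one, at the promoter of Gm45923, the peak centres lay between -5231 and -5122 bp from the Myod1 start, and EDL stood at percentile 83.7, Quad at 80.8, Sol at 76.6 and Dia at 44.1. The other lay 27222 to 27360 bp downstream, assigned to Kcnc1, at 92.9, 89.0, 74.7 and 41.7. At both, EDL ranked highest and Dia lowest. A region near -23 kb ranked 86.2 in EDL, 77.9 in Quad and 63.9 in Sol, and one near -34.8 kb ranked 82.7, 70.5 and 33.4, and Dia had no peak at either. EDL also ranked first at these last regions. Quad ranked above EDL at the regions near 32.3 kb (79.4 and 76.3) and 38.0 kb (83.3 and 78.8), which Sol and Dia lacked, so EDL was not highest throughout. Ranks from lists of unequal length are compared here. Enhancers upstream of Myod1 are known, and which of these peaks fall on them was not tested.

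**Figure D3:**
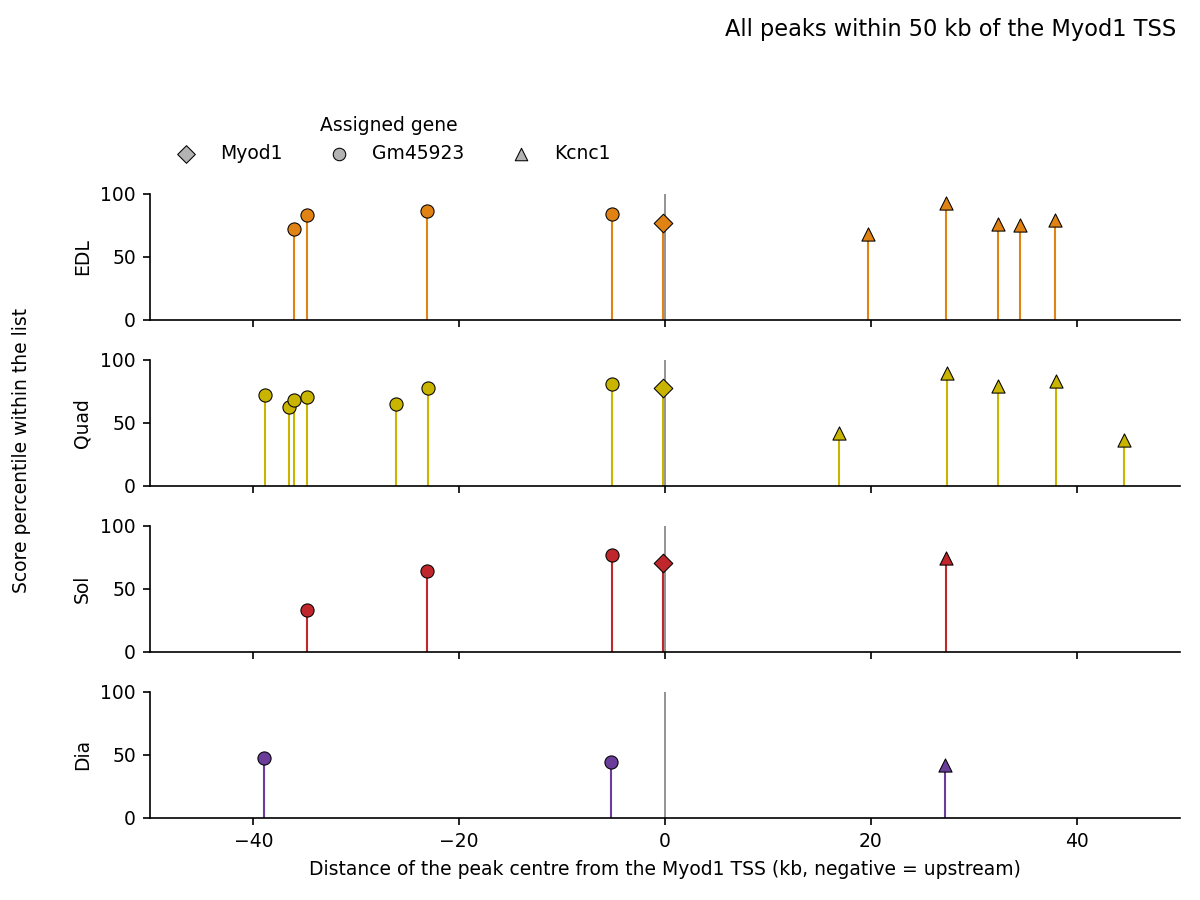
All peaks within 50 kb of the Myod1 start, whatever gene they were assigned to. The x axis is the distance of the peak centre from the start in kb, the y axis the score percentile within the list of the muscle, and marker shapes give the assigned gene; EDL has 10 peaks, Quad 13, Sol 5 and Dia 3, and the Dia panel is empty at the start itself.

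Myog, which drives the fusion and differentiation of myoblasts, lies at chr1:134289989-134292548 on the plus strand. Its promoter, printed above, was without a peak in every list. Its 7 peaks fell in 4 regions, of which the best-ranked lay about 12.9 kb downstream in intron 25 of 28 of Ppfia4, a gene for a liprin. There Sol scored 12.2 (10.2 to 14.5), Quad 9.86 (7.78 to 12.3) and Dia 9.87 (8.01 to 12.0), at percentiles 82.0, 74.0 and 68.1. It was the only region of the factors with a Dia peak in the upper part of the Dia list. The Sol and Quad scores differed by less than the counting error, with a ratio of Quad to Sol of 0.808 (0.599 to 1.08), as did those of Sol and Dia, at 1.24 (0.945 to 1.63).

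EDL had its own peak in the same Ppfia4 intron, at chr1:134302564-134302772, with a score of 10.9 (8.96 to 13.1) and percentile 77.1. It stopped 45 bp short of the Sol peak, 75 bp short of the Dia peak and 92 bp short of the Quad peak. Counted by overlap it was a region of EDL alone, and with peaks up to 500 bp apart joined it became 1 region present in all 4 lists. A further Myog region lay in the 3′ untranslated part of exon 3 of 3, about 2.2 kb from the start. It was found in EDL (7.12, 5.59 to 8.94, percentile 51.6) and Sol (7.17, 5.64 to 8.99, percentile 50) and not in Quad or Dia. The ratio of EDL to Sol was 0.993 (0.711 to 1.39). A Quad peak 13945 bp upstream, at percentile 18.0, completed the gene. None of the 4 peaks in the Ppfia4 intron, 1 from each muscle, ranked below percentile 68.1.

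Myf6, also called MRF4, is the family member that prevails in adult fibres and lies at chr10:107492853-107494737 on the minus strand. It held 16 of the 39 peaks, in 6 regions. Both regions found in all 4 lists were its own. They lay at -73.7 and -68.4 kb inside Ptprq, which encodes a receptor phosphatase. The other 4 were the promoter, a region at -5.1 kb, and single Sol peaks at -11886 bp (percentile 21.9) and at the end of Ptprq at -22137 bp (percentile 9.81).

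The region at -68.4 kb, at the border of exon 35 of 45 and intron 35 of 44 of Ptprq, differed most between the muscles. Its score was 14.6 in EDL (12.4 to 17.1, 152 tags), 9.99 in Quad (7.90 to 12.5, 78 tags), 5.54 in Sol (4.21 to 7.17, 58 tags) and 5.04 in Dia (3.74 to 6.64, 50 tags). The percentiles fell from 88.6 in EDL and 74.6 in Quad to 30.6 in Sol and 16.7 in Dia. The EDL and Quad intervals lay above those of Sol and Dia and met each other at their edge, with a ratio of EDL to Quad of 1.46 (1.11 to 1.95). EDL exceeded Sol by 2.64-fold (1.94 to 3.63) and Dia by 2.90-fold (2.10 to 4.08), and Quad exceeded Sol by 1.80-fold (1.27 to 2.58), while Sol and Dia did not separate (1.1, 0.741 to 1.64).

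The region at -73.7 kb, in intron 33 of 44 of Ptprq, showed another order. EDL scored 8.37 (6.70 to 10.3), Sol 6.12 (4.71 to 7.81), Quad 4.61 (3.23 to 6.38) and Dia 4.33 (3.13 to 5.83), at percentiles 62.5, 38.2, 20.8 and 4.66. EDL was above Quad by 1.82-fold (1.22 to 2.76) and above Dia by 1.93-fold (1.33 to 2.85). Quad was not above Sol here, at 0.753 (0.487 to 1.15). The Quad peak was centred at -73650 bp and the other 3 between -73729 and -73709 bp.

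Nearer to the gene, the region at -5.1 kb scored 11.8 in Quad (9.50 to 14.4), 10.2 in EDL (8.35 to 12.3) and 7.07 in Sol (5.55 to 8.88). The promoter peak scored 9.62 in EDL (7.83 to 11.7), 7.81 in Quad (5.98 to 10) and 5.73 in Sol (4.38 to 7.38), at percentiles 70.7, 61.1 and 33.4. Dia had a peak at neither. EDL exceeded Sol by 1.44-fold (1.06 to 1.97) at -5.1 kb and by 1.68-fold (1.21 to 2.35) at the promoter. Among promoter peaks alone, the Myf6 peak ranked at 42.5 in EDL, 24.0 in Quad and 10.4 in Sol.

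The score was thus higher in EDL than in Sol at all 4 Myf6 regions that both lists held, but at -73.7 kb the ratio of 1.37 had an interval of 0.98 to 1.92, so 3 of the 4 differences exceeded the counting error. Over the 20584 regions shared by EDL and Sol the median ratio was 0.989, and 3.75% scored at least 1.5-fold higher in EDL, a limit chosen after the values were seen. Of the 7 shared regions of the factors, 2 did, the Myf6 promoter and the Myf6 region at -68.4 kb. The other 5 had ratios between 0.993 at Myog and 1.44. Between Quad and Sol the median ratio over 21764 shared regions was 1.1 and 8.50% reached 1.5-fold higher in Quad, as did 2 of the 8 shared regions of the factors, Myf6 at -68.4 and -5.1 kb. Peaks were narrower in Quad than in Sol, so a score there covers fewer bases. The regions of 1 gene share its locus and are not independent of one another.

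**Figure D4:**
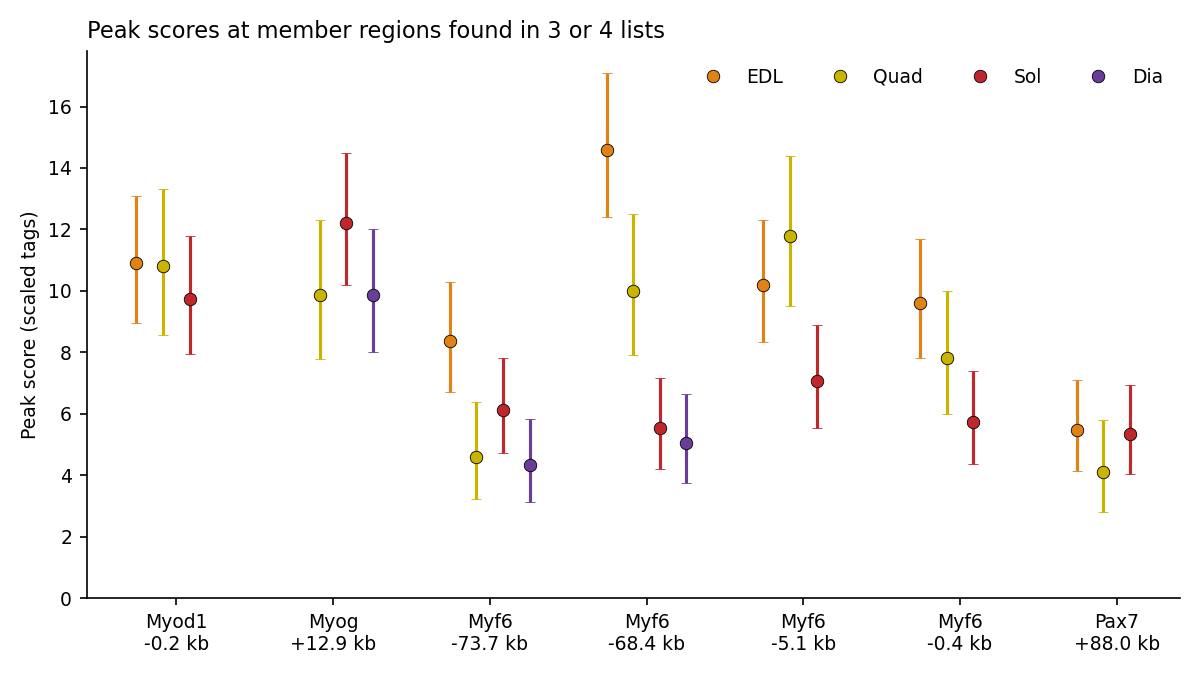
Peak scores at the 7 regions of the factors found in 3 or 4 lists. The y axis is the scaled tag score and the bars are 95% Poisson intervals of the tags; the EDL score of 14.6 at the Myf6 region at -68.4 kb stands above those of the other muscles, and the Myod1 promoter scores of 9.75 to 10.9 overlap.

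A peak in all 4 lists was found at 2 of 20, against 26.9% of all merged regions, and a peak in 1 list alone at 10 of 20, against 42.6%, which is near the background. Of the 14497 regions in all 4 lists over the whole series, 7760 held a promoter peak. Only 2 of the 20 regions of the factors did, so the 26.9% is not matched for promoters. Sharing with Dia was then set apart. Among regions found in EDL, Quad and Sol, 2 of 6 of the factors' regions also held a Dia peak, against 76.9% of all. Away from promoters this was 2 of 4 against 63.6%, which with so few regions is near the background. The 2 distal regions without a Dia peak were at Myf6 and Pax7. Beside these shares the shortfall was larger at the Myod1 and Myf6 promoters, which are only 2 regions. Both lacked a Dia peak, where 93.9% of all promoter regions of EDL, Quad and Sol held one. The share was 89.4% among those with an EDL score up to that of Myod1.

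EDL and Quad shared 7 regions of the factors, 77.8% of the EDL and 50% of the Quad ones, where 80.8% and 60.4% of all regions of these lists were shared. EDL and Sol also shared 7, 77.8% of EDL and 58.3% of Sol, against 68.3% and 71.5%. Quad and Sol shared 8, 57.1% of Quad and 66.7% of Sol, against 54.0% and 75.6%. Of the 4 Dia regions, 3 were shared with Quad, 3 with Sol and 2 with EDL, with 77.2% to 80.7% of all Dia regions shared. Seen from the other side, these made up 22.2% of the EDL, 21.4% of the Quad and 25.0% of the Sol regions of the factors, where 55.4%, 43.2% and 57.9% of all regions were shared with Dia. The lowest shares were thus those with Dia, which had the shortest list and the lowest shares over all regions as well.

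Short motifs were searched on both strands in the central 188 bases of the 33 peaks of the factors that lay outside promoters. An E-box was present in 18 of them (54.5%), against 68.7% of 83145 such peaks in all lists. Its CAGCTG form was in 5 (15.2% against 22.3%) and its CACCTG form, also read as its complement, in 6 (18.2% against 12.0%). CATTCC, the MCAT motif of TEAD factors, was in 5 (15.2% against 12.5%). No MEF2 motif and no TCAGGTT was found, against 4.87% and 3.35% of all such peaks. The median share of G and C was 52.1% in both sets. E-boxes were most frequent in the Sol peak at -11886 bp of Myf6, which held 4, and in the Myog peaks at 2.2 kb, which held 3 each, while the Myf6 peaks at -68.4 kb held none. Overlapping peaks of several muscles read the same bases, so the 33 windows are not independent.

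Promoter sequence was matched for 3 members, Myog, Pax7 and Myf5. Myod1, Myf6 and Pax3 were not in the promoter table. The Myog promoter was the only one of the 3 with a match: 2 E-boxes and a TCAGGTT, where 66.2% and 3.49% of 32851 promoters held at least 1. Its stretch ctatatttat departs from the MEF2 pattern searched only in the last base and was not counted, so a looser MEF2 site is not excluded. The Pax7 and Myf5 promoters held none of the motifs in these 250 bases. For Pax7 the stretch, chr4:139832969-139833218, lies before the RefSeq start but inside the gene as GENCODE vM21 gives it. The bases before its GENCODE start were thus not searched. A match is a description of letters and does not show binding.

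Other genes of the myogenic programme, in 5 lists of 48 genes, gave the setting for these counts. Genes with at least 1 peak numbered 40 in EDL and in Sol, 42 in Quad and 36 in Dia, and those with a promoter peak 28 in EDL, 27 in Sol, 29 in Quad and 20 in Dia. Over all protein-coding genes, the share with a peak was 54.7% in EDL, 54.5% in Sol, 60.2% in Quad and 51.2% in Dia. The share with a promoter peak was 37.7%, 37.6%, 41.3% and 37.0% in that order. The 20 of 48 in Dia thus lay near its share and slightly above it. The promoter counts of the other lists lay further above theirs. All 3 E-protein partners had promoter peaks in every list, and Tcf4 had the most peaks of them, 38 over the 4 lists. Of 13 inhibitors of the factors, 9 had a promoter peak in EDL, 10 in Quad and 7 each in Sol and Dia. Twist2, a repressor of Myod1 activity, had the most peaks of the inhibitors, with 11 in Quad, 8 in EDL, 4 in Dia and 2 in Sol.

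Among 15 targets and differentiation genes, 6 had a promoter peak in each of EDL, Quad and Sol and 4 in Dia. Mef2c, which acts together with the factors, had the most peaks, 48 over the lists. Mymk, the fusion protein myomaker, and Myh8, the perinatal myosin, had no peak in any list. Of 11 satellite cell genes, 5, 5, 6 and 2 had a promoter peak in EDL, Quad, Sol and Dia, to be read beside the same shares. Cd34 had the most peaks of these, 19, and Calcr, the calcitonin receptor of quiescent satellite cells, had none in any list.

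By the numbers of peaks in each muscle, the genes of these lists nearest to Myod1 were Snai2 and Pitx3, which differed from it by a Dia peak (Euclidean distance 1 over the 4 counts). Tcf3, Met and Cdkn1a, tied with a further gene, stood at 1 from Myog, and Spry1 at 1 from Pax7. Myf5 was nearest to Msc and Chrnd at 1, and Pax3 had the same counts as both. No other of the 17157 genes with a peak had the counts of Myf6. The counts of Pax3 were shared by 1049 other genes, those of Myod1 by 379, those of Myog by 245, those of Myf5 by 148 and those of Pax7 by 14. Likeness in such small numbers is thus common.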

How the data were processed

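ATAC-seq libraries of EDL, Quad, Sol and Dia were grouped by the tissue in the labels, with 1 library each. The authors aligned reads to mm10 with Bowtie2 at its default settings, which report a read with several positions at one of them, limited each start position to 1 tag, called fixed-width peaks in each library separately with HOMER and annotated them to the nearest gene. Reads from repeats can thus add to a peak. Handling of the Tn5 offset and of mitochondrial reads is not given in the sources used here. How many samples each pooled library combined is not known.

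The deposited score is a signal, the tags in a peak scaled by library size. The deposited fraction of tags on the proper side of a peak (focus ratio) was read and not used. Positions, distances and annotations were used as the authors gave them, and promoters are theirs, from 1 kb before to 100 bp after a start. Below a score of 10, 100.00% of the scores lay within 0.006 of a whole multiple of 1 step, 0.0956 in Sol, 0.0962 in EDL, 0.1007 in Dia and 0.1281 in Quad, which was taken as 1 tag. Read totals were not used, and depth rests on these steps. Intervals are exact 95% Poisson intervals of the tags, and intervals of ratios come from exact binomial intervals of 2 tag counts. No test between muscles was possible with 1 library each.

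Peaks overlapping by at least 1 bp were merged across lists. Sequences came from RefSeq GRCm38.p6, gene positions from GENCODE vM21, and coordinates are 1-based. Motifs were the E-box (CANNTG) with its forms CAGCTG and CACCTG, MEF2, MEF3 (TCAGGTT) and MCAT (CATTCC). Beside the members, the text names the genes holding other peaks near a member, the gene with the most peaks and those without a peak in each of the 5 lists, and the genes nearest to each member in peak counts, with up to 3 named in a tie. Some of these results, among them those of the list of upstream factors, are not reported here. The members, lists and motifs were chosen with earlier results of these data known. Alternatives were the 20000 highest-scored peaks, the upper 50% of each list, other distances and other overlaps. Python 3.11.15, pandas 2.3.3, NumPy 2.4.6, SciPy 1.17.1, pysam 0.24.0 and Matplotlib 3.10.9 were used, and the counting steps were tested on simulated peaks.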

Additional observations from a re-analysis of the deposited data

How the results depend on the processing

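Several counts depended on which peaks were admitted. With each list limited to its top 20000 peaks by score, the factors held 5 peaks in Quad and 2 in Dia, in 9 regions, of which 1 was in all 4 lists and 2 in a single list. In the upper 50% of each list they held 5 in Quad, 1 in Dia and 3 in Sol, in 9 regions, of which 0 were in all 4 lists and 4 in a single list. Within 50 kb of the assigned start they held 7 in Quad and 2 in Dia, in 13 regions, with 0 in all 4 lists. Taking every peak within 50 kb of a member's start, whatever its assigned gene, gave 17 in EDL and 22 in Quad. Within 100 kb, a window chosen after seeing the data, there were 40 in Quad, 26 in EDL, 25 in Sol and 9 in Dia, in 51 regions, with 6 in all 4 lists and 25 in a single list. The other values of these settings were within 1.5 times the reported count, as were those with a reciprocal overlap of 50% (21 regions, 2 in all 4 lists, 12 in a single list) or with peaks joined up to 500 bp apart (19, 3 and 9). The 6 promoter peaks of Myod1 and Myf6 were counted as 6 in both alternatives tried for them. The higher count of Quad than of EDL came with low-ranked peaks: among the 20000 highest-scored, EDL held 7 and Sol 8. Motif counts around promoter peaks were not run, because the members with a promoter peak had no entry in the promoter table. No paired analysis was possible because each muscle is represented by 1 library. With 25 to 36 tags behind the lowest peaks, absence from a list is not absence of open DNA.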

Other observations

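Peaks near Myog that were assigned to other genes included a region at -45661 to -45610 bp from its start, assigned to Adora1, the adenosine A1 receptor gene. It was present in all 4 lists at percentile 49.4 in Quad, 35.4 in Dia, 30.6 in Sol and 18.8 in EDL. A region 32750 to 32820 bp downstream, assigned to Ppfia4, ranked 13.7 in EDL, 48.0 in Quad and 43.8 in Sol and had no Dia peak. At both, EDL had the lowest rank of the muscles with a peak, whereas at the regions around Myod1 that were in all 4 lists it had the highest. Within 100 kb of the Myod1 start the lists held 11, 17, 6 and 3 peaks in EDL, Quad, Sol and Dia, and within 100 kb of the Myog start 9, 12, 10 and 3.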
